A study of Mus musculus with 5 samples.

Results

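The genes described here are 115 members of the mouse replication, repair and mitosis gene families, among 2634 genes that could be named and 28416 genes measured in cardiac ventricle. The deposited values number their genes and give no names. A gene took its name where its FPKM values (fragments of a gene relative to its transcript length and to the size of the library) were exactly those of a gene on either of the study's 2 supplementary lists of changed genes, one for genotype at PN3 and one for development. Members were the named genes whose symbol begins with 1 of 28 family prefixes, such as Mcm, Orc, Pold, Rfc, Fanc, Kif, Cenp, Bub, Cdca, Ccn and E2f, without Ccna2, Ccnb1, Ccne2, Ccnf, E2f2, Cenpe and Cdca5. The prefixes had been picked with earlier results of these data known. Of the 115 members, 112 stood on the development list, as far as it could be read, 44 on the genotype list and 41 on both.

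RNA was sequenced from ventricles of male mice of a mixed 129v/BL6 strain, with atria and blood removed. There were 2 Celf1 −/− libraries and 2 Celf1 +/+ libraries at postnatal day 3 (PN3) and 1 Celf1 +/+ library at postnatal day 38 (PN38), so no Celf1 −/− library at PN38 entered any comparison. Celf1 is an RNA binding protein, and the Celf1 −/− mice came from a line with a mutant Celf1 allele that is not limited to a cell type of the heart. Celf1 mRNA measured 2.61 and 3.03 FPKM in Celf1 −/−, 58.4 and 57.8 FPKM in neonatal Celf1 +/+ and 28.4 FPKM in PN38 ventricles, so each library matched its label. Genotypes were compared between littermates according to the methods, and which libraries shared a litter, or whether a library held more than 1 heart, is not given in the sources used here, so p-values measure only the spread between these libraries. The expected counts of a library summed to between 108044267 and 139769903.

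A cell that divides first loads the ring-shaped MCM helicase onto origins marked by the origin recognition complex, then copies its DNA with polymerases alpha, delta and epsilon, and repairs broken or crosslinked DNA by recombination and the Fanconi anemia pathway. In mitosis, condensins and topoisomerase II shape the chromosomes, kinesin motors build the spindle, and the kinetochore and the Bub checkpoint proteins hold the cell until every chromosome is attached. Heart muscle cells divide before birth and for a short time after it, and then largely stop, while other cells of the ventricle keep some division.

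The letters of the promoters are shown first, because replication and mitosis members differed in them and later also in how the libraries differed. RefSeq promoters (GRCm38.p6, 250 bases before to 50 bases after the start) matched 101 of the 115 members, with 114 promoters. Each was searched on both strands for the letters bound by E2F factors in replication genes (TTTCCCGC, TTTGGCGC, TTTCGCGC or TTTGCCGC), for the cell cycle homology region or CHR of mitosis genes (TTTGAA or TTCGAA), and for CCAAT. The E2F letters can overlap each other, and CCAAT can overlap the CHR letters. Windows of 30 bases before the start are given for replication members that hold E2F letters, with those letters in capitals, and for mitosis, chromosome and cycle control members that hold CHR letters, again in capitals. The sequences run 5′ to 3′ on the strand of the gene.
Mcm5 (chr8:75109345-75109374, plus strand): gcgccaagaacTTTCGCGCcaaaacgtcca
Mcm6 (chr1:128359734-128359763, minus strand): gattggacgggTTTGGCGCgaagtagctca
Mcm7 (chr5:138172030-138172059, minus strand): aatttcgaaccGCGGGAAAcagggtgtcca
Orc1 (chr4:108579416-108579445, plus strand): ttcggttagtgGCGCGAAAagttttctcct
Pola1 (chrX:93632275-93632304, minus strand): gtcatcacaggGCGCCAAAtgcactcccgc
Kif15 (chr9:122951050-122951079, plus strand): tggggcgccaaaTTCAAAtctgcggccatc
Kif2c (chr4:117178858-117178887, minus strand): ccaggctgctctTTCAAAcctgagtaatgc
Ncapg (chr5:45669883-45669912, plus strand): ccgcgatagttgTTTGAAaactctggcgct
Top2a (chr11:99024195-99024224, minus strand): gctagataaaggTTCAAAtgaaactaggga
Bub3 (chr7:131560315-131560344, plus strand): gagccgttggcgTTCAAAatcagccaatga
Cdc20 (chr4:118437344-118437373, minus strand): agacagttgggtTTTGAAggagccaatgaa

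The first base of the capitals lies at −153 from the start in Mcm5, at −47 in Mcm6, at −165 in Mcm7, at −27 in Orc1 and at −138 in Pola1. It lies at −19 in Kif15, at −103 in Kif2c, at −30 in Ncapg, at −23 in Top2a, at −43 in Bub3 and at −18 in Cdc20. The window of Kif15 also holds E2F letters, in lower case just before the CHR letters. The window of Mcm7 also holds CHR letters, in lower case just before the E2F letters. The promoter of Ncapg holds E2F letters too, outside its window, with their first base at 32 after the start. The E2F letters stood in 12 of 24 promoters (50%) of the helicase, origin, polymerase and clamp loader genes and in 4 of 36 promoters (11.1%) of the spindle motor, centromere and checkpoint genes, against 2.26% of all 32851 promoters. The CHR letters stood in 6 of 24 (25%) and 24 of 36 (66.7%) of the same promoters, against 19.2% of all. CCAAT stood in 70.8% and 69.4% of the same promoters and in 62.3% of the members' promoters, against 37.4% of all promoters. By role CCAAT stood in 100.0% of the 13 helicase and origin promoters, 36.4% of the 11 polymerase and clamp loader promoters and 18.2% of the 11 promoters of relatives. These shares describe letters in a window and name no bound site. Members without a matched promoter included Ska1, Ccnd2, Cdc25c, Cdca2, Gins1, Gins2, Mcm4, Fancd2, Rad54b, Kif20a, Pole, Prim2 and Rfc2.

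**Figure D1:**
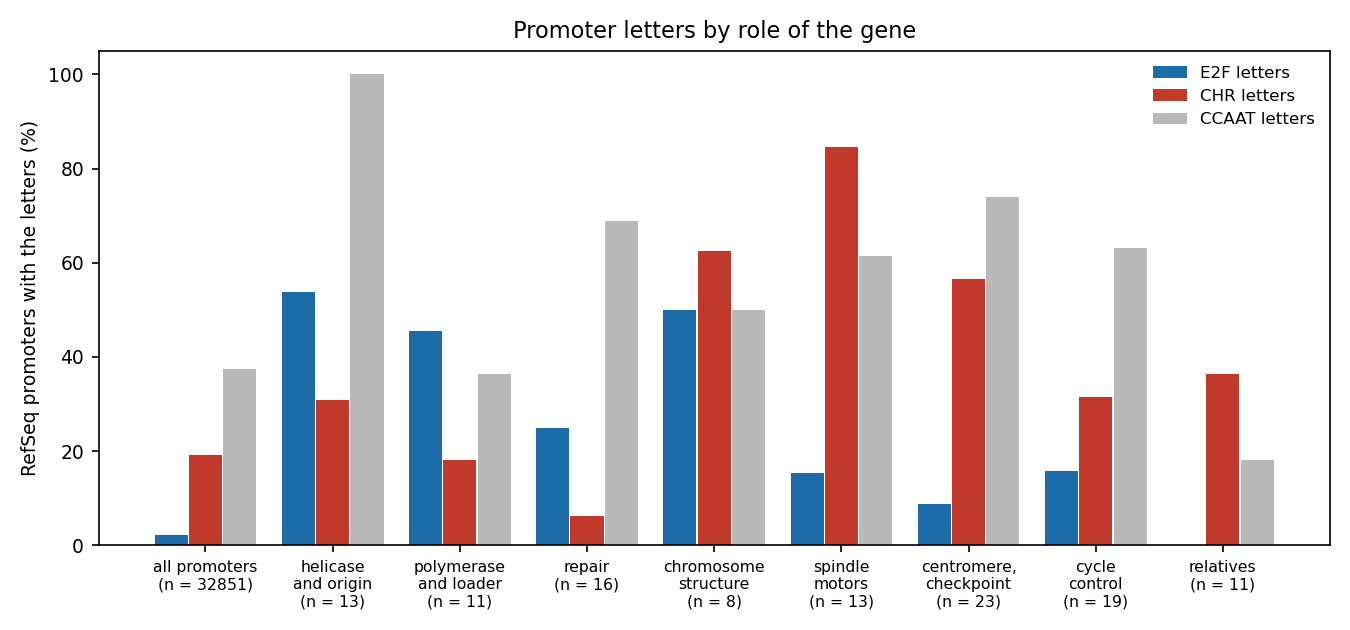
Share of RefSeq promoters (%) that hold the E2F, CHR or CCAAT letters, for all promoters and for the promoters of each role, with the number of promoters under each role. The E2F bar is 53.8% for the helicase and origin genes and 0.0% for the relatives, and the CHR bar is 84.6% for the spindle motors and 6.25% for the repair genes.

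Most members were more abundant in Celf1 −/− than in Celf1 +/+ ventricles at PN3, by a modest amount. No member passed edgeR's quasi-likelihood test after adjustment, and some passed edgeR's exact test and DESeq2. Of the 115 members, 107 had a log2 fold change above 0, and in 94 both Celf1 −/− libraries lay above both Celf1 +/+ libraries in FPKM, against 49.9% and 26.8% of the 12502 genes tested. In 5 members both Celf1 −/− libraries lay below both Celf1 +/+ libraries, against 30.3% of all genes. In the other 16 the genotypes overlapped, against 5360 of the 12502 genes tested. The median log2 fold change of the 112 members on the development list was 0.42, against −0.00 over all genes tested. The median stayed above 0 with each library left out, and moved between 0.26 without replicate 2 of Celf1 +/+ and 0.58 without replicate 1 of Celf1 +/+. The development list was made without the Celf1 −/− libraries, but it shares the Celf1 +/+ libraries with this comparison.

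With edgeR's quasi-likelihood test, 0 of the 115 members were called at a false discovery rate (FDR) of 0.05 and 1.5 fold, where 0.056% of all genes were called. An unadjusted p under 0.05 was found for 75 members, against 23.6% of all genes. Of the 75, 74 were higher in Celf1 −/−, and 12.1% of all genes were higher at that p. Of the 112 members on the development list, 71 were higher at that p. With edgeR's exact test 8 members were called higher, where 1.11% of all genes were called higher, and with DESeq2 also 8. All members called by the exact test stood on the genotype list, and so did 37 of the 37 members that passed FDR 0.05 in it without a fold threshold, where 2.98% of all genes passed. The 8 of the exact test were Hist1h2bk, Top2a, Plk4, Kif1a, Kif5c, Kif15, Kif18b and Kif23, and DESeq2 called Cenpk in place of Hist1h2bk. Since the study chose the genotype list on these libraries, its members' genotype values are given as a description.

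**Figure D2:**
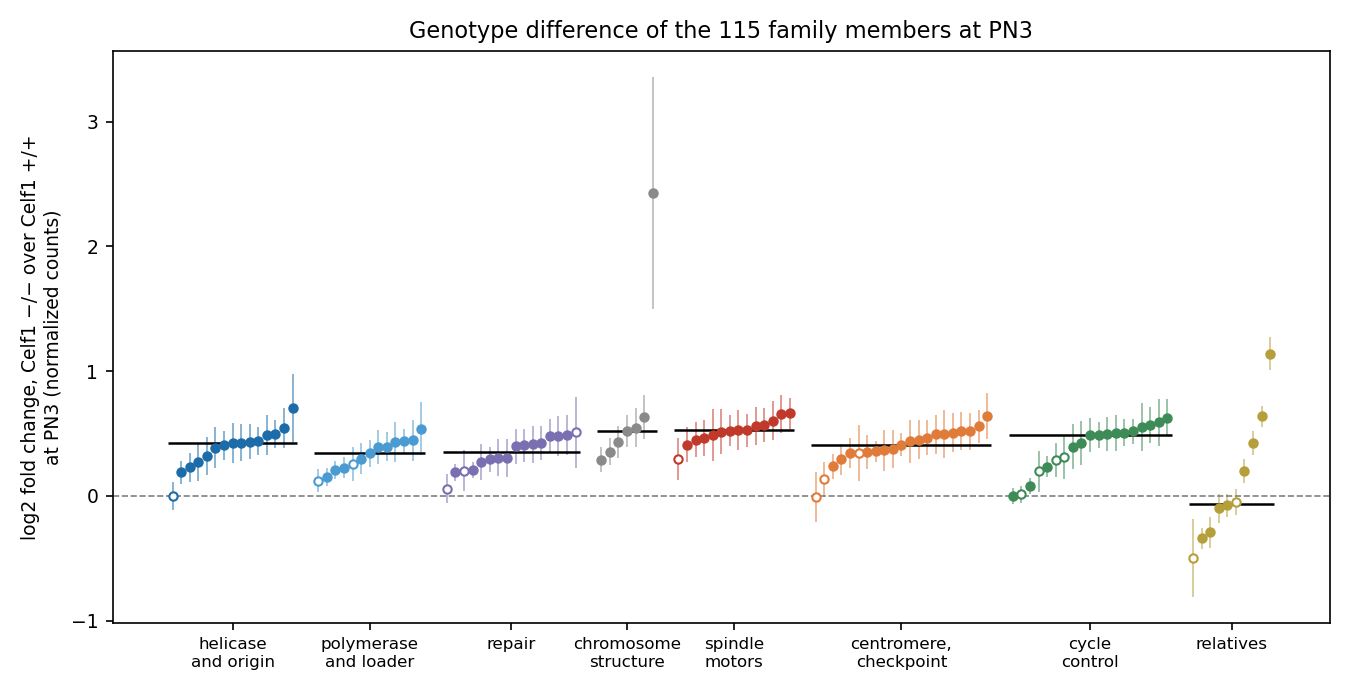
Log2 fold change of each of the 115 members between Celf1 −/− and Celf1 +/+ ventricles at PN3 in normalized counts, ordered within its role. Bars are standard errors, black lines are role medians, and open points are the 16 members whose libraries overlap between genotypes. The medians of the first 7 roles lie between 0.34 and 0.53, that of the relatives at −0.06, and Hist1h2bk stands apart at 2.43 with a wide error.

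Among the 15 helicase and origin genes, all on the development list, 14 were higher in both Celf1 −/− libraries, 9 with an unadjusted p under 0.05, and the median log2 fold change was 0.43. Over all genes 26.8% were higher in both Celf1 −/− libraries and 12.1% were higher at that p. These shares also stand beside the counts of the roles that follow. Mcm2 to Mcm7 encode the 6 subunits of the helicase ring. Mcm6 (chromosome 1 of mm9, 130228168 to 130256233, minus strand) measured 56.9 and 48.9 FPKM in Celf1 −/− against 39.5 and 36.7 FPKM in Celf1 +/+ ventricles at PN3, and 3.03 FPKM at PN38. Its log2 fold change between genotypes was 0.50 (standard error, SE, 0.111, edgeR adjusted p = 0.12). The genotypes did not overlap, and replicate 1 was the higher library in each.

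Mcm7 (chromosome 5, 138605811 to 138613650, minus strand), the most abundant member of this role over the 5 libraries, measured 53.3 and 47.7 FPKM in Celf1 −/−, 46.9 and 40.5 FPKM in Celf1 +/+ and 4.78 FPKM at PN38. Mcm2 measured 49.98 and 39.2 FPKM against 37.8 and 31.4 FPKM, with 3.27 FPKM at PN38. Mcm3 measured 45.4 and 36.4 FPKM against 32.5 and 26.6 FPKM, with 3.89 FPKM at PN38. In these 3 genes as in Mcm6 the lower Celf1 −/− library was replicate 2, which lay just above the higher Celf1 +/+ library in Mcm2 and Mcm7. Mcm5 measured 39.4 and 33.1 FPKM against 30.2 and 24.5 FPKM, with 2.28 FPKM at PN38. Mcm4 was the least abundant of the 6 at PN3 in every library, with 28.6 and 25.4 FPKM against 21.5 and 18.8 FPKM, and measured 3.03 FPKM at PN38. The 6 subunits had a median log2 fold change of 0.43, and 4 of the 6 had an unadjusted p under 0.05.

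**Figure D3:**
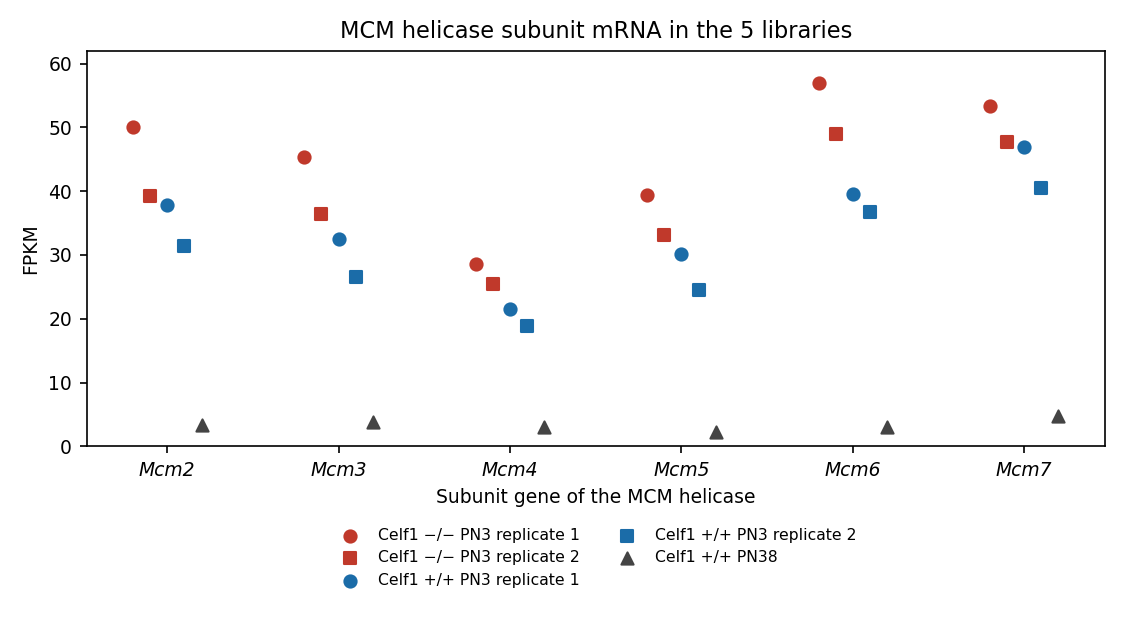
FPKM of Mcm2 to Mcm7 in each of the 5 libraries, 1 point per library. For every subunit the order at PN3 is Celf1 −/− replicate 1, Celf1 −/− replicate 2, Celf1 +/+ replicate 1 and Celf1 +/+ replicate 2, from 56.9 FPKM at most in Mcm6 to 18.8 FPKM at least in Mcm4, and all PN38 points lie at or below 4.78 FPKM.

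Outside the ring, the log2 fold changes of the role spread more, from −0.00 in Mcm8 to 0.71 in Orc1. Those of Cdc45, Gins1, Gins2 and Gins3, which join the ring at the fork, lay between 0.27 and 0.43. That is within the range of the ring, from 0.23 in Mcm7 to 0.50 in Mcm6. Orc1, the largest subunit of the origin recognition complex, had the largest log2 fold change of the role at 0.71 (SE 0.272, edgeR adjusted p = 0.21). It was a low transcript, with 2.43 and 1.67 FPKM in Celf1 −/−, 1.47 and 1.06 FPKM in Celf1 +/+ and 0.09 FPKM at PN38. Gins2, a subunit of the GINS complex that activates the helicase, measured 29.4 and 24.99 FPKM against 23.0 and 18.1 FPKM, and 1.26 FPKM at PN38. Mcm8, which forms another helicase with Mcm9 in recombination repair, had the smallest difference of the role, with 2.77 and 2.61 FPKM against 2.77 and 2.68 FPKM and a log2 fold change of −0.00 (SE 0.113).

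Of the 13 polymerase, primase and clamp loader genes, 13 had a log2 fold change above 0, with a median of 0.34. Both Celf1 −/− libraries were higher in 11, against 26.8% of all genes, and 9 had an unadjusted p under 0.05. Pole, the catalytic subunit of polymerase epsilon, had the largest difference, with 10.6 and 8.87 FPKM in Celf1 −/−, 8.24 and 5.71 FPKM in Celf1 +/+ and 0.73 FPKM at PN38, and a log2 fold change of 0.54 (SE 0.211, edgeR adjusted p = 0.21). Its genotypes were separated by a small gap, between replicate 2 of Celf1 −/− and replicate 1 of Celf1 +/+. Pola2, the accessory subunit of polymerase alpha, had the smallest difference, with 19.6 and 18.3 FPKM against 18.5 and 16.7 FPKM, which overlap. Rfc2, a subunit of the clamp loader and the most abundant gene here, measured 40.9 and 39.4 FPKM against 37.3 and 36.0 FPKM and 12.4 FPKM at PN38, a log2 fold change of 0.15 (SE 0.0712). Pola1, the catalytic subunit of polymerase alpha, stood on both lists and measured 7.90 and 6.99 FPKM against 5.71 and 5.43 FPKM.

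The 16 repair genes were low transcripts, with means between 1.70 and 10.2 FPKM in Celf1 +/+ ventricles at PN3. All 16 had a log2 fold change above 0, and the median was 0.35. Both Celf1 −/− libraries were higher in 13, against 26.8% of all genes, and 10 had an unadjusted p under 0.05. Rad51ap1, a protein of recombination repair and the most abundant of them over the 5 libraries, measured 12.8 and 12.1 FPKM in Celf1 −/−, 10.3 and 7.72 FPKM in Celf1 +/+ and 1.11 FPKM at PN38. Fanca and Fancg both belong to the Fanconi core complex. Fanca had the largest log2 fold change of the role, 0.51 (SE 0.282, edgeR adjusted p = 0.32), but its libraries overlapped, with 6.81 and 4.28 FPKM against 4.50 and 3.33 FPKM. Fancg had the smallest, 0.06 (SE 0.117), with 3.79 and 4.50 FPKM against 3.84 and 4.22 FPKM.

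All 6 condensin and topoisomerase genes were higher in both Celf1 −/− libraries, each with an unadjusted p under 0.05, and the median log2 fold change of these 6 was 0.48. Top2a (chromosome 11 of mm9, 98854257 to 98885503, minus strand), the topoisomerase that untangles chromosomes before they separate, measured 73.1 and 75.1 FPKM in Celf1 −/−, 56.8 and 40.1 FPKM in Celf1 +/+ and 2.60 FPKM at PN38. The log2 fold change was 0.64 (SE 0.175, edgeR adjusted p = 0.15). The Celf1 −/− libraries differed little, while the Celf1 +/+ libraries lay as far apart as the nearest libraries of the 2 genotypes. Ncapd3, a subunit of condensin II, had the smallest difference of the role at 0.29 (SE 0.0999), with 16.4 and 15.0 FPKM against 14.1 and 12.5 FPKM. The histone gene Hist1h2bk, on the genotype list alone, rested on 74 and 72 expected counts in Celf1 −/− against 0 and 25 in Celf1 +/+, and histone genes have near-identical copies between which RSEM can split reads.

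The 14 spindle motor genes, which include the spindle protein gene Tacc3 that is not a kinesin, had the largest median of the 8 roles, 0.53. The 7 chromosome genes, with Hist1h2bk counted, followed closely at 0.52. All 14 had a log2 fold change above 0, and 12 had an unadjusted p under 0.05. Both Celf1 −/− libraries were higher in 13, against 26.8% of all genes. Of these 14, 10 stood on the genotype list. Kif15 (chromosome 9 of mm9, 122860199 to 122927843, plus strand), a kinesin that helps to keep the spindle poles apart, measured 6.66 and 6.82 FPKM in Celf1 −/−, 4.75 and 3.89 FPKM in Celf1 +/+ and 0.29 FPKM at PN38. Its log2 fold change was 0.66 (SE 0.125, edgeR adjusted p = 0.11). Kif20a, a kinesin of cell division's last step and the most abundant of the motors, had the smallest difference, 0.30 (SE 0.17), and overlapped, with 25.8 and 33.6 FPKM against 27.5 and 21.3 FPKM. Kifc1 and Kifc5b have near-identical sequences, so the division of reads between them is uncertain, and both were higher in both Celf1 −/− libraries.

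Of the 20 centromere and checkpoint genes on the development list, 19 had a log2 fold change above 0, with a median of 0.42. Both Celf1 −/− libraries were higher in 17, against 26.8% of all genes, and 12 had an unadjusted p under 0.05. Cenpk, of the inner kinetochore, had the largest difference, with 11.1 and 8.34 FPKM against 6.47 and 6.26 FPKM and a log2 fold change of 0.64 (SE 0.184, edgeR adjusted p = 0.15). Bub1, a checkpoint kinase, measured 11.7 and 12.3 FPKM in Celf1 −/−, 9.57 and 7.13 FPKM in Celf1 +/+ and 0.30 FPKM at PN38. Cenpa, the histone variant that marks centromeres and the most abundant of the role, was an exception. It measured 43.0 and 59.2 FPKM in Celf1 −/− against 60.2 and 43.7 FPKM in Celf1 +/+, so that each genotype had a high and a low library and the log2 fold change was −0.01 (SE 0.202).

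The 19 cyclin, Cdc20, Cdc25, Cdca, E2f, Nek and Plk4 genes of cycle control had a median of 0.49. Of these, 11 had an unadjusted p under 0.05, and 14 were higher in both Celf1 −/− libraries. Plk4, the kinase that starts centriole duplication, had the largest difference, with 12.8 and 13.0 FPKM against 9.61 and 7.18 FPKM and a log2 fold change of 0.63 (SE 0.15, edgeR adjusted p = 0.13). The D cyclins, which act at the entry into the cycle, differed little between genotypes. Ccnd3 was the most abundant member of all at PN3 in Celf1 +/+, and measured 90.9 and 89.6 FPKM in Celf1 −/− against 91.1 and 92.6 FPKM in Celf1 +/+, a log2 fold change of 0.00 (SE 0.0645). Ccnd2 measured 58.5 and 57.7 FPKM against 54.9 and 56.6 FPKM.

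The remaining 10 members carry a family name, and most act outside DNA copying and division, or have no settled role in them. Ccng2 and Plk2, which are linked to the cell cycle, were also placed here. The median log2 fold change of these 10 was −0.06. In both Celf1 −/− libraries 4 were above and 4 below, against 26.8% and 30.3% of all genes. Kif5c, a neuronal cargo motor that stood on the genotype list alone, measured 1.13 and 1.06 FPKM in Celf1 −/−, 0.48 and 0.52 FPKM in Celf1 +/+ and 0.58 FPKM at PN38. Kif1a, another cargo motor, had the smallest adjusted p of the members on the development list, with 2.33 and 2.59 FPKM against 1.57 and 1.63 FPKM, a log2 fold change of 0.64 (SE 0.0813, edgeR adjusted p = 0.080). Ccng2, an atypical cyclin linked to arrest, lay lowest at −0.50 (SE 0.31), with 12.0 and 20.5 FPKM against 17.6 and 28.5 FPKM, and its replicates differed by more than its genotypes. Kif26a, a kinesin of signalling, was lower in both Celf1 −/− libraries, with 7.76 and 8.74 FPKM against 9.92 and 10.9 FPKM. Plk2, the most abundant relative, measured 35.3 and 38.6 FPKM against 34.8 and 43.0 FPKM and overlapped.

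The replicate libraries themselves differed in these genes. In Celf1 +/+, replicate 2 lay below replicate 1 for most members, above it in 14 of 115, with a median log2 difference of −0.32, whereas over all genes replicate 2 was above in 50.4%. In Celf1 −/−, the helicase, origin, polymerase and clamp loader genes were above in replicate 2 in 0 of 28, with a median of −0.22 and against 49.8% of all genes, and the spindle motor, centromere and checkpoint genes in 26 of 35, with a median of 0.07. The corresponding counts in Celf1 +/+ were 1 of 28 and 1 of 35. Thus between the Celf1 −/− replicates the replication genes were lower in replicate 2 and most mitosis genes slightly higher. Between the Celf1 +/+ replicates nearly all of both were lower in replicate 2. In Celf1 −/− the spindle motors were above in 12 of 14, median 0.112, and the centromere and checkpoint genes in 14 of 21, median 0.04. Over all genes the median absolute log2 difference between the Celf1 −/− replicates was 0.105. These differences come from 1 pair of libraries for each genotype, and no test was made of them. Grouped by promoter letters, 23 of 36 members with CHR and no E2F letters were above in replicate 2 of Celf1 −/−, and 2 of 17 with E2F and no CHR letters. With both kinds of letters 3 of 9 were above, and with neither 14 of 39, against 49.8% of all genes. The letter groups overlap the roles in part, since 20 of the 36 were mitosis genes and 9 of the 17 replication genes.

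**Figure D4:**
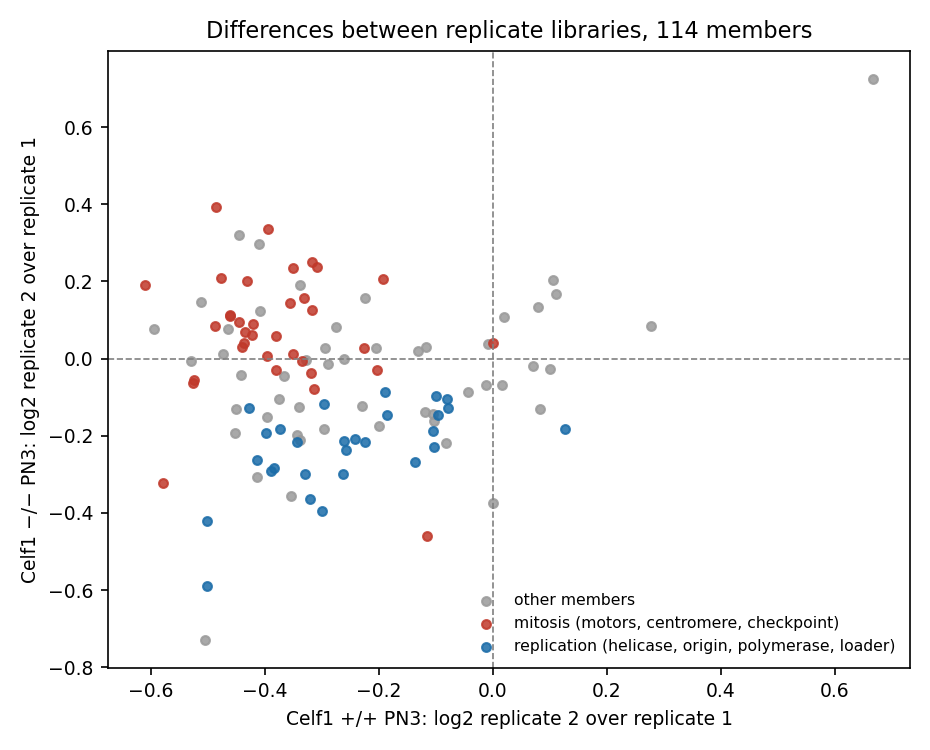
Log2 difference of replicate 2 over replicate 1 in normalized counts for 114 members (without Hist1h2bk, which has no counts in 1 library), in Celf1 +/+ on the x axis and in Celf1 −/− on the y axis. Replication members (blue) all lie below 0 on the y axis and 26 of the 35 mitosis members (red) above it, and nearly all of both lie left of 0 on the x axis. Ccng2 stands apart at the upper right.

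How far the genotypes stood apart depended on the Celf1 +/+ library used. Without replicate 1 of Celf1 +/+, 16 members were called by the quasi-likelihood test, among them Top2a, Bub1, Ndc80, Ncapg, Ncaph, Plk4, Kif11, Kif15, Kif18b, Kif23 and Tacc3, where 0.72% of all genes were called higher, and without any other library 0 were. For Top2a the log2 fold change moved between 0.40 and 0.92 over these fits, and for Mcm6 between 0.35 and 0.62.

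Genes of the same processes that do not carry these family names were compared with the members. Of a list of 100, 81 had a name, and all 81 had a log2 fold change above 0, against 49.9% of all genes. Their median was 0.49, and 78 were higher in both Celf1 −/− libraries, against 26.8% of all genes. An unadjusted p under 0.05 was found for 67, all higher in Celf1 −/−, where 12.1% of all genes were higher at that p. None was called by the quasi-likelihood test, and 45 passed FDR 0.05 in edgeR's exact test, against 2.98% of all genes. Many of the 81 also stood on the genotype list, which the study chose on these libraries, so their genotype values are given as a description. Oip5, which helps to load Cenpa at centromeres, had the largest log2 fold change at 0.72, and the kinase gene Cdk4 the smallest at 0.10. Of 10 inhibitors of the cycle 4 had a name, with a median of −0.25, from −0.88 for Gadd45a to 0.09 for Cdkn2c. Gadd45a and Btg2 were named from the genotype list alone, so their genotype difference is what chose them. The 2 named from the development list had a median of −0.03, and both overlapped between genotypes.

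Markers of other cells of the ventricle were measured beside the members, as far as the same lists named them, so the marker genes given are ones listed as changed. The 5 of 26 erythroid markers named, among them Hba-a2, Hbb-b1 and Alas2, summed to between 2296 and 4902 FPKM in Celf1 −/−, 7221 and 7487 FPKM in Celf1 +/+ at PN3 and 6255 FPKM at PN38. This sum was lower in Celf1 −/−, where most members were higher. Of the 5, 4 were lower in both Celf1 −/− libraries, and these 4 were named from the genotype list. Slc4a1, named from the development list, overlapped, with 0.73 and 2.33 FPKM in Celf1 −/− against 1.57 and 1.19 FPKM in Celf1 +/+ at PN3. The 4 of 18 cardiomyocyte markers named, Myh7, Ryr2, Nppa and Nppb, summed to between 2688 and 3355 FPKM in Celf1 −/− against 1364 and 1414 FPKM in Celf1 +/+ at PN3, and 1890.3 FPKM at PN38. Most of that difference lay in Nppa, with 1857 and 1763 FPKM against 559 and 453 FPKM, while Ryr2 was lower in both Celf1 −/− libraries, with 75.1 and 73.9 FPKM against 107.8 and 110.1 FPKM, and Myh7 overlapped. The 10 of 14 fibroblast markers named summed to between 2727 and 2763 FPKM, 2770 and 3107 FPKM, and 937 FPKM in the same groups. They did not move together: Fn1, Vim and Tcf21 were higher in both Celf1 −/− libraries, Dcn, Lum and Col3a1 lower in both, and 4 overlapped. The sums of the other lists were between 147 and 155 FPKM, 137 and 149 FPKM, and 110.0 FPKM for 3 of 14 endothelial markers, and between 704 and 759 FPKM, 502 and 508 FPKM, and 531 FPKM for 4 of 9 mural cell markers. Within these lists Cldn5 and Kcnj8 were lower in both Celf1 −/− libraries, while Eng, Vwf, Acta2, Tagln and Cnn1 were higher in both. The 1 of 13 macrophage markers named, Cd68, measured 2.38 and 3.19 FPKM in Celf1 −/−, 4.71 and 5.39 FPKM in Celf1 +/+ and 7.56 FPKM at PN38. No named marker was at 0 in any library, and the part of these cells in the members' difference was not tested. In bulk tissue, fewer cells of a type and less RNA per cell cannot be told apart.

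By PN38 the members were far lower, most of all those of the spindle and the kinetochore. The development list that named 112 of them could be read only for its stronger decreases, so a lower level at PN38 is what chose these members and their values are given as a description. In FPKM, the PN38 level was 10% of the PN3 mean or less for 50 of the 115 members, against 2.3% of all genes. The 14 spindle motors had a median of 5.92% of the PN3 level left, the 21 centromere and checkpoint genes 5.95%, the 19 cycle control genes 10.3%, the 7 chromosome genes 11.9%, the 15 helicase and origin genes 13.2%, the 16 repair genes 13.5%, the 13 polymerase and clamp loader genes 25.3% and the 10 relatives 29.5%. PN38 is a single library, so these values have no replicate check at that age. On the FPKM scale the median log2 change of all genes was −0.46, and in normalized counts −0.02, so the log2 changes that follow are in normalized counts.

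**Figure D5:**
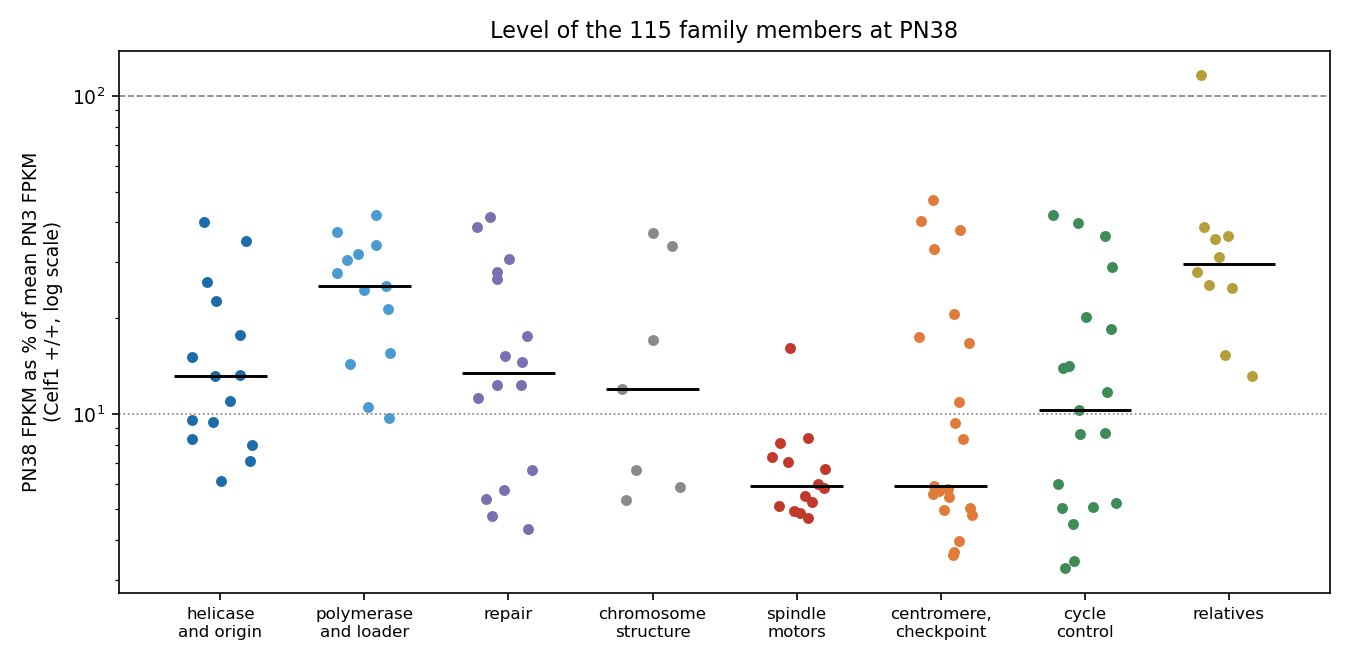
FPKM at PN38 as a percent of the mean FPKM at PN3 in Celf1 +/+ ventricles for each of the 115 members by role, on a log axis, with role medians as black lines. The dotted line marks 10% and the dashed line 100%. Of the 14 spindle motors 13 lie below 10%, and Kif5c at 116% is the member above its PN3 level.

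Among the replication genes, Gins2 had the largest log2 change of the helicase and origin role, −3.58, and Mcm8 the smallest, −0.89. The 6 ring subunits had a median of −2.85. Their levels at PN38 ran from 2.28 to 4.78 FPKM, against 18.8 to 46.9 FPKM in the Celf1 +/+ libraries at PN3. Pole had the largest change of the polymerase role, −3.21, and the small polymerase delta subunit Pold2 the smallest, −0.79, with 33.4 and 28.4 FPKM at PN3 and 13.1 FPKM at PN38. Pold2 and Ccnd3 were the members just inside the limit of the list, with 42.3% of the PN3 level left in each.

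Among the repair genes, Fanci, which forms a clamp on crosslinked DNA together with Fancd2, had the largest change, −4.10, from 3.04 and 2.48 FPKM to 0.12 FPKM. Fancf, of the core complex, had the smallest, −0.82, from 2.47 and 2.33 FPKM to 1 FPKM. Top2a changed by −3.83 and Ncapd3 by −1.11. Thus within 1 role, condensin II's Ncapd3 kept 36.9% of its level and Top2a 5.37%. Ncapg2, also of condensin II, kept 11.9%.

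Among the mitosis genes, Bub1 changed by −4.43, Kif2c, a kinesin that takes microtubules apart, by −3.95, from 10.5 and 8.60 FPKM to 0.45 FPKM, and Kif18a, which aligns chromosomes, by −2.19, from 3.63 and 2.95 FPKM to 0.53 FPKM. Cdca3, which promotes entry into mitosis, had the largest change of all members, −4.49, from 49.5 and 35.5 FPKM to 1.39 FPKM. Cenpa kept 40.3% of its level, with 20.9 FPKM at PN38. Ccnd3 changed by −0.80, to 38.8 FPKM. Kif1a had the largest change among the relatives, −2.50, to 0.21 FPKM, and Cdc42ep5, an effector of the small GTPase Cdc42, the smallest of those tested, −0.91, from 10.5 and 11.3 FPKM to 4.23 FPKM.

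The genotype list was made without the PN38 library, and its 44 members give the development comparison without the choice above, though with the same Celf1 +/+ libraries at PN3. Of the 42 that could be tested, 42 were called lower at PN38 by the quasi-likelihood test (FDR 0.05, 2.0 fold), where 22.4% of all genes were called lower, and the median log2 change was −3.21. Bub3, a checkpoint protein on the genotype list alone, fell from 43.7 and 38.8 FPKM to 19.4 FPKM, a log2 change of −0.64 (SE 0.109, edgeR adjusted p = 0.0049). Its level at PN38 was 47.1% of that at PN3, outside the limit of the development list. Hist1h2bk and Kif5c were below the filter of 1 FPKM in both groups and had no test. Over all members, 112 of 113 were called lower, and 101 when the fold was taken from normalized counts, where 11.4% of all genes were called. The exception was Ccng2, with 8.36 FPKM at PN38, a log2 change of −1.01 and an edgeR adjusted p = 0.075, whose replicates also differed widely at PN3.

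At PN38, 53 members were under 1 FPKM, while the most abundant members left at that age were Ccnd3, Ccnd2, Cenpa and Bub3, with 38.8, 22.2, 20.9 and 19.4 FPKM. Of these, Ccnd3, Ccnd2 and Cenpa were also among the members that differed little between genotypes at PN3, and Bub3 had a log2 fold change of 0.36 there. Of the list of other replication and division genes, 81 of 81 were called lower at PN38, with a median log2 change of −3.25, from −4.73 for Hmmr, a spindle protein, to −0.82 for Ube2s, which serves the ubiquitin ligase that ends mitosis. All 81 stood on the development list, which fixes that direction.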

How the data were processed

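The authors aligned paired-end reads of polyadenylated RNA from 5 ventricle libraries to mm9 with TopHat and quantified genes with RSEM (TopHat2 2.02 and RSEM 1.2.4 in the submitters' processing notes). The deposited expected counts are fragments assigned to each gene without normalization, and the deposited FPKM scale them to effective length, another deposited column, and library total. TPM were not used. Names came from the study's supplementary lists by exact match of FPKM, which gave 1 gene for 961 of 961 and 1995 of 1998 entries. The development list was held only in part, and list values served for naming alone. Positions are from GENCODE vM1 on mm9 (113 of 115 members).

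Rounded counts went into edgeR 4.0.16, with limma 3.58.1 and R 4.3.3: TMM, glmQLFit, glmQLFTest and Benjamini-Hochberg adjustment over all genes. PN3 used the 4 PN3 libraries and 12502 genes reaching 1 FPKM in each replicate of a genotype. Development used all 5 libraries, with the spread taken from the PN3 pairs, and 12816 genes reaching 1 FPKM at PN38 or in each Celf1 +/+ PN3 library. The fold threshold was a ratio of mean FPKM of 1.5 or 2.0. Standard errors came from the fold change and the F statistic. Scripts were tested on simulated counts. Alternatives were DESeq2 1.42.0, the exact test, other filters, normalization and library sets, a replicate block, leaving out 6 members named by a second name, and fits without 1 library. Python 3.11.15, pandas 2.3.3, numpy 2.4.6 and matplotlib 3.10.9 handled tables and plots.

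The members, roles and lists (other replication and division genes, inhibitors, and erythroid, cardiomyocyte, fibroblast, endothelial, macrophage and mural cell markers) were chosen with earlier results of these data known. In each of the 8 roles the text gives the member with the highest mean FPKM and those with the largest and smallest change in each comparison, and also Mcm2 to Mcm7. Of the other lists it gives the largest and smallest change. Pola1, Ccnd2, Kif26a, Kifc1, Kifc5b and members called under an alternative were chosen after their values were seen. The values of 1 member are not reported here, and it is counted among the members.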

Additional observations from a re-analysis of the deposited data

How the results depend on the processing

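The number of members called at PN3 was 0 with edgeR's quasi-likelihood test, and stayed 0 under RLE normalization, no filter, a filter on counts, all 5 libraries, no fold threshold and first names only. It was 8 with edgeR's exact test and 8 with DESeq2. With 1 library left out it ran from 0 to 16, the 16 coming without replicate 1 of Celf1 +/+. The median genotype log2 fold change of members on the development list kept its sign, and ran from 0.26 to 0.58 with 1 library left out. Members called lower at PN38 numbered between 101 and 113. The median development log2 fold change of members on the genotype list ran from −3.38 to −2.99 with 1 Celf1 +/+ library at PN3 or 1 Celf1 −/− library left out, and was −3.56 from FPKM ratios, where the median of all genes is also lower. Fits without a library left a genotype with 1 library, assumed to vary like the others.

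With a replicate block at PN3, 0 members were called and the median of members on the development list was 0.42. Deviations of same-numbered libraries correlated at 0.18 over 12502 genes, and 2 pairs that share only a number do not pair the samples. No paired analysis was possible because PN38 has a single library, for the development comparison. Depth limits low transcripts: with 0 and 25 counts in Celf1 +/+, the fold change of Hist1h2bk is not well fixed, and the single PN38 library gives no spread at that age.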
